A study of Homo sapiens with 9 samples.

Results

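The mitochondrial ribosomal protein genes were taken as the protein-coding genes whose names start with MRPL or MRPS followed by a number. This rule found 78 of the 27615 genes listed in at least 1 library, 49 named MRPL and 29 named MRPS, and it used no measured value. The libraries came from MDA-MB-231 cells, an established human triple-negative breast cancer line, treated with rimonabant, with TXX-1-10 or with the DMSO vehicle alone, and each treatment had 3 libraries. Rimonabant blocks CB1, a cannabinoid receptor. TXX-1-10 was derived from it and carries a quaternary ammonium group on its pyrazole ring. The dose and the duration used for sequencing are not given in the sources used here, so whether the compounds were matched in dose is not known. All groups were of the same unmodified line.

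Mitochondria have ribosomes of their own, which translate the few proteins that mitochondrial DNA encodes, all of them parts of the respiratory chain and the ATP synthase. The ribosomal RNAs come from mitochondrial DNA, whereas every protein of the particle is encoded in the nucleus, made in the cytosol and imported. About the catalytic core sit proteins with counterparts in bacteria, and further proteins found only in mitochondrial ribosomes surround them. The names carry history: MRPS30 and MRPS18A, named as small subunit proteins, sit in the large subunit, and MRPS36 is a component of the oxoglutarate dehydrogenase complex. By these roles the members comprised 51 large subunit genes, 26 small subunit genes and MRPS36.

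The library totals ranged from 17078370 to 19277808. The deposited lists end at different points, at 4237 genes for rimonabant replicate 1 and at 9397 to 27615 genes for the others, and a gene missing from a list is not at 0. Of the 78 members, 30 were in all 9 lists, 42 in 8 and 6 in fewer. The tests therefore used 8 libraries, without rimonabant replicate 1, and 9369 genes with a mean of at least 1 FPKM (fragments per kilobase of gene length, scaled to the library total), 72 of them members. Rimonabant replicate 1 and TXX-1-10 replicate 3 stood apart when each library was set against the mean of the other libraries of its own group. Their deviations ran against gene length (Spearman correlation across genes -0.694 and -0.692). The other treated libraries had 0.477 to 0.667, each against a mean that held the library standing apart. Members are short (median 2539 bases of exon among those tested, against 5407 for all genes tested). TXX-1-10 replicate 3 exceeded the mean of replicates 1 and 2 in 73 of the 75 members that could be compared. The median ratio was 1.17 for these members and 1.03 over all genes tested. The part of this library in each result is shown by values without it. Of the markers of the line, VIM was at 224 to 329 FPKM and CD44 at 27.4 to 48.2 in the 9 libraries, ESR1 and PGR were below 0.0459 FPKM in the 4 lists that hold them, and CDH1 was listed at 0. The other markers expected to be low or absent in this line were detected. ERBB2 was at 6.996 to 9.523 FPKM in the 9 libraries. EPCAM was at 4.469 to 5.37 FPKM in 7 lists, and GATA3 at 0.3955 to 1.453 FPKM in 6. KRT8, a luminal keratin, was at 34.1 to 69.1 FPKM. PTPRC, a leukocyte marker, was at 0.0639 FPKM or below. In bulk RNA, fewer cells and less RNA per cell cannot be told apart. Nothing states that replicates were separate cultures, so the p-values measure the spread between these libraries, which may be technical.

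The upstream sequences of 5 members are shown as examples. Promoters of ribosomal protein genes of this organelle are known to carry sites for nuclear respiratory factors. The 5 are not the largest changes in order, and MRPS10 had the smallest of the called rises. RefSeq sequences (GRCh38.p14) were matched by symbol for 69 of the 78 members. Each run gives the 250 bases before the RefSeq start, from 5′ to 3′ on the strand of the gene. Capitals mark matches on either strand to any of the 5 motifs searched: GCATGCGC (NRF1), CCGGAAG (ETS factors, GABP among them), AAGATGG (YY1), CACGTG (E-box) and GGGCGG (SP1). The first 4 genes fell under TXX-1-10 and MRPS10 rose. The runs lie at chr17:81703117-81703366 (plus strand), chr2:27771469-27771718 (plus), chr1:1407294-1407543 (minus), chr16:1773135-1773384 (minus) and chr6:42217862-42218111 (minus), in the order given.
MRPL12: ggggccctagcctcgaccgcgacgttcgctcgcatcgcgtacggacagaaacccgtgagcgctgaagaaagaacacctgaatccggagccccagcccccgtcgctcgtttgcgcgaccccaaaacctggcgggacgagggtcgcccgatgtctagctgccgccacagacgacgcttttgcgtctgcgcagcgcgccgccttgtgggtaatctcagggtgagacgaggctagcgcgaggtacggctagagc
MRPL33: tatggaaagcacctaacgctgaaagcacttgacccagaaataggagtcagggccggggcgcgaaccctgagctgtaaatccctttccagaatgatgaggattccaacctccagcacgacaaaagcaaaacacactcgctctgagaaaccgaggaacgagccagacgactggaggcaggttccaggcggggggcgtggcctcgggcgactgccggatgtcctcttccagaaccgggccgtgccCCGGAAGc
MRPL20: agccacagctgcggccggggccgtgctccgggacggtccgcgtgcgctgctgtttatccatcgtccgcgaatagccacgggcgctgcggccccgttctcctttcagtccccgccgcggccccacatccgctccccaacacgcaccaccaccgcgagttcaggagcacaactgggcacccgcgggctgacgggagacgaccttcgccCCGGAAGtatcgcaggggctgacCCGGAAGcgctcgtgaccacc
MRPS34: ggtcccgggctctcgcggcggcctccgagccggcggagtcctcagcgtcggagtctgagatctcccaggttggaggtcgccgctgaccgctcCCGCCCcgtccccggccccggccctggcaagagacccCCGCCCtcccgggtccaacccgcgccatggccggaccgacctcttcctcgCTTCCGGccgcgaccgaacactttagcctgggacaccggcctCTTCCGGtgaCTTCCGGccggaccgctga
MRPS10: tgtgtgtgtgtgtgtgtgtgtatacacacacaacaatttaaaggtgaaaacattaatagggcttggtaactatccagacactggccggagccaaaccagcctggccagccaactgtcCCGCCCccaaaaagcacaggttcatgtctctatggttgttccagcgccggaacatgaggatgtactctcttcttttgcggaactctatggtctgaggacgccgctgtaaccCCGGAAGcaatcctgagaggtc

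By the GENCODE annotation, these windows reached 2 to 21 bases into the first exon of their own gene. The MRPL12 window also held 184 bases of an exon of AC139530.1 and the MRPS34 window 178 bases of an exon of EME2, both on the opposite strand. The MRPL12 window held none of the 5 motifs. The MRPS34 window held 3 ETS matches, the MRPL20 window 2, and the MRPL33 and MRPS10 windows 1 each. None of the windows shown held the NRF1 letters, whereas that of MRPL17, among the 10 largest falls, held 3 matches. The windows shown therefore do not stand for the shares over all members. Across the 69 members, the ETS letters occurred in 23 windows (33.3%), against 8.82% of all 27305 RefSeq promoters and 18.2% of the 7507 promoters of genes tested here. They were present in 13 of 38 members that fell under TXX-1-10 (34.2%) and in 1 of 4 that rose. The NRF1 letters occurred in 6 members (8.7%, against 2.81% of all promoters and 5.42% of those tested here), MRPL17, MRPL22, MRPL32, MRPL52, MRPS18B and MRPS18C. The YY1 letters occurred in 10.1% of members (3.77% of all promoters and 3.65% of those tested here). The E-box occurred in 8.7% of members, above the 6.49% of all promoters and below the 9.59% of those tested here, and the SP1 letters in 55.1%, likewise between the 42.3% of all promoters and the 70.5% of those tested here. These counts describe letters in a window and not binding.

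In vehicle-treated cells, the tested members lay between 4.73 and 103 FPKM (group means), with a median of 19.3 FPKM, and the median over all genes tested was 9.75 FPKM. MRPL51 led with 110, 101 and 98.5 FPKM in the 3 vehicle libraries, followed by MRPL14 (mean 85.3 ± 3.6, SD, n = 3), MRPS34 (72.3 ± 3.1), MRPL41 (69.0 ± 2.5) and MRPL24 (68.3 ± 1.2). MRPL14 and MRPL24 have bacterial counterparts, and the other 3 are found only in mitochondrial ribosomes. The ranges of the last 3 overlapped (69.7 to 75.8, 67.1 to 71.9 and 67.1 to 69.5 FPKM), and 31.3% of the exon bases of MRPL51 are shared with NCAPD2. The lowest means were those of MRPS24 (0.994 FPKM), MRPL38 (1.146), MRPL46 (1.63), MRPL53 (1.87) and MRPS17 (2.67), each from the 2 vehicle lists that hold them. Exons of other genes overlap each of these 5, over 11.3% of the exon bases of MRPL46 and up to 45.2% of those of MRPL53, and how reads in such stretches were assigned is not stated, so their levels are uncertain. Over all members, 41 share exon bases with another gene, 34 of them with a coding gene. The 6 members in fewer than 8 lists were not tested. Among them MRPS28, a small subunit gene, was at 6.48 and 6.33 FPKM in 2 vehicle libraries, at 3.92 and 4.28 in rimonabant replicates 2 and 3, and at 2.91, 2.24 and 3.02 under TXX-1-10. The 3 groups did not overlap there, and 35.8% of its exon bases are shared with another gene. The other 5 were at 0.665 to 3.56 FPKM in every list.

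Summed over the 72 members listed for the 8 libraries, the level was 1934, 1914 and 1898 FPKM in the vehicle libraries. It was 1715 and 1745 FPKM in rimonabant replicates 2 and 3, and 1479, 1448 and 1754 FPKM in the TXX-1-10 libraries. Every treated library was below every vehicle library, and TXX-1-10 replicate 3 alone lay above the rimonabant libraries. The mean of the sum was thus 90.3% of vehicle under rimonabant and 81.5% under TXX-1-10. The large subunit genes stood at 91.0% and 79.7%, and the small subunit genes at 88.5% and 85.1%. Over the 30 members in all 9 lists, which rimonabant replicate 1 can join, the sum was 1176, 1161 and 1158 FPKM in vehicle and 1040 and 1057 in rimonabant replicates 2 and 3, but 1227 in rimonabant replicate 1, above every vehicle library. The level under rimonabant therefore rests on which of its libraries are used. These sums are descriptions without a test.

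**Figure D1:**
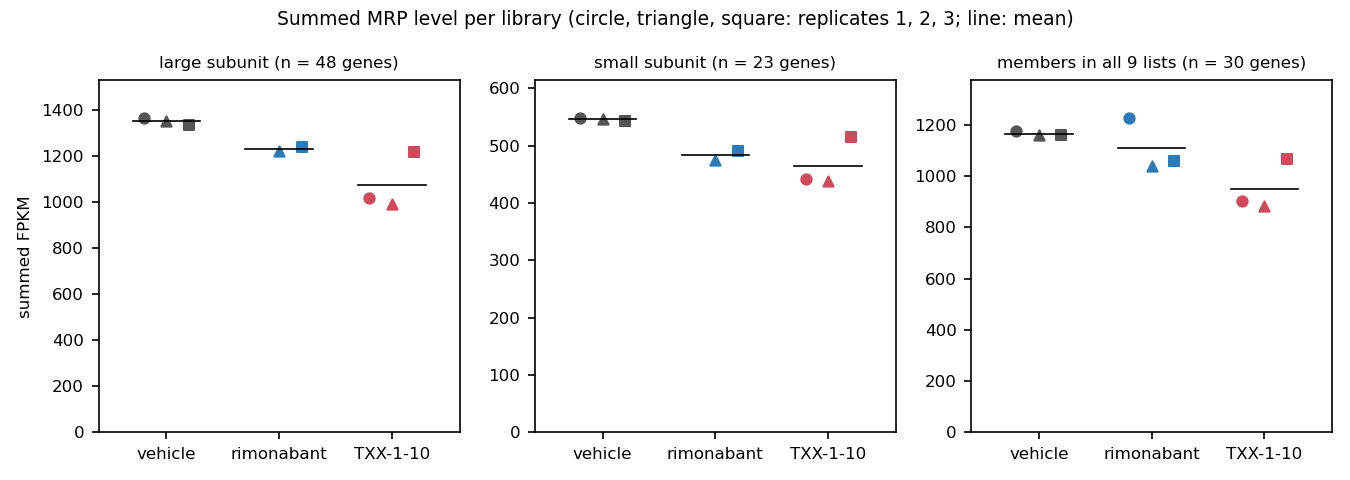
Summed FPKM of the large subunit genes, the small subunit genes and the members in all 9 lists (vertical axis from 0) by treatment, with a point per library and a line at the mean. In the first 2 panels the treated libraries lie below the vehicle libraries, and in the last panel rimonabant replicate 1 (circle, 1227 FPKM) lies above them.

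TXX-1-10 was followed by lower levels of most mitochondrial ribosomal protein genes, by modest amounts. Of the 72 tested, 42 fell and 5 rose against vehicle at an adjusted p under 0.05 (edgeR quasi-likelihood, Benjamini-Hochberg over 9369 genes), while 40.6% of all genes tested fell and 34.7% rose. The median log2 fold change was -0.30 for members and -0.04 for all genes. With a fold of at least 2 required in addition, 1 member fell and none rose by the edgeR test, against 7.39% and 5.28% of all genes. At any fold, 48 members had an unadjusted p under 0.05. The share of all genes at that threshold was not counted, so the 48 are no result about the members. All TXX-1-10 libraries were below all vehicle libraries in 38 members and above them in 6, against 41.2% and 35.2% of all genes. Among large subunit genes 31 of 48 fell and 3 rose (median -0.37), and among small subunit genes 11 of 23 fell and 2 rose (median -0.18). Of the 45 genes with bacterial counterparts 28 fell and 4 rose, and of the 26 found only in mitochondria 14 fell and 1 rose. These splits were counted and not tested.

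Without TXX-1-10 replicate 3, 54 members fell and 4 rose (44.1% and 36.2% of all genes), with a median of -0.39. The 42 that fell with the library in place were all among the 54. The falls kept their calls in 39 of 42 members when the trend on gene length was removed, but the rises numbered 13 instead of 5 (39.3% and 39.4% of all genes), and with TMM scaling the split was 39 falls and 10 rises (37.6% and 38.1%). The fall of the 37 members that share no exon base with another gene was counted separately: 21 fell and 3 rose, with a median of -0.20. For the 35 with shared bases, 21 fell and 2 rose, and the median was -0.37.

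**Figure D2:**
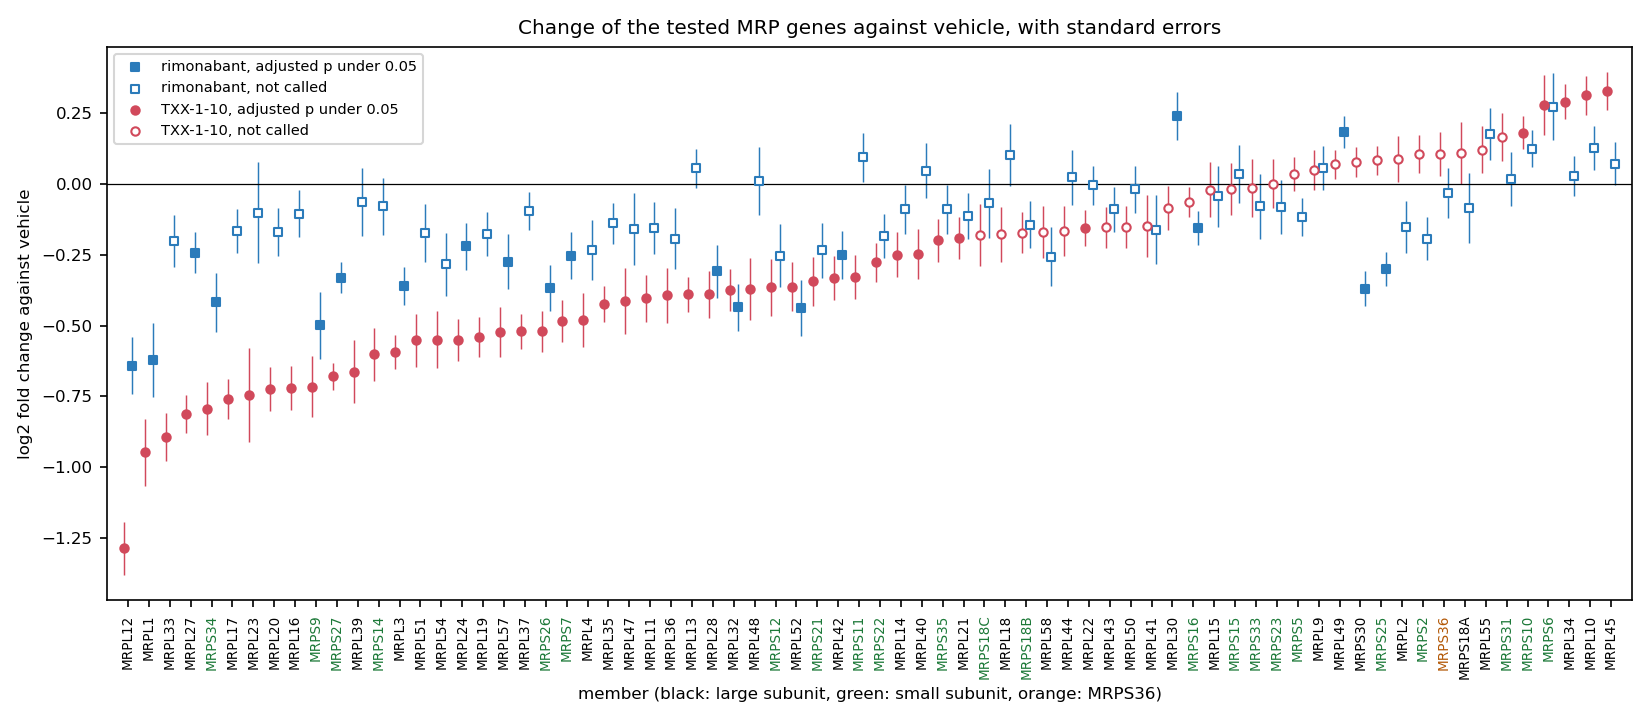
The log2 fold change against vehicle (vertical axis) of the 72 tested members under TXX-1-10 (circles) and rimonabant (squares), ordered by the TXX-1-10 value, with bars of 1 standard error and filled symbols where the adjusted p was under 0.05. Circles run from -1.28 for MRPL12 to 0.33 for MRPL45, and most squares lie between them and 0 on the left of the plot.

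MRPL12 showed the largest change of the family. It encodes the stalk protein that contacts the factors of elongation, and the gene (ENSG00000262814) lies at chr17:81703357-81707526 on the plus strand of GRCh38. Its level was 27.9, 26.1 and 28.2 FPKM in the vehicle libraries, 17.8 and 17.3 in rimonabant replicates 2 and 3, and 10.7, 10.3 and 12.8 under TXX-1-10. The groups did not overlap, with rimonabant between the others. The log2 fold change under TXX-1-10 was -1.28 ± 0.09 (SE, edgeR adjusted p = 8.58e-08), or 0.411 times the vehicle level, and -1.39 without replicate 3. Of its exon bases, 68.2% are shared with AC139530.2 on the same strand, a gene in none of the lists, so its level is uncertain. The stalk includes 2 more members. MRPL11, at its base, was at 30.6 to 33.1 FPKM in vehicle and at 22.6, 21.5 and 27.4 under TXX-1-10, a fall of every library (log2 -0.40 ± 0.08, edgeR adjusted p = 0.000709). MRPL10, which holds the MRPL12 copies, went the other way, from 16.1, 17.9 and 17.7 FPKM to 20.2, 20.9 and 23.1 (log2 0.31 ± 0.07, edgeR adjusted p = 0.00123). The 3 stalk genes therefore did not move together.

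MRPL1 (ENSG00000169288, chr4:77862520-77952790, plus strand), which belongs to the mobile stalk near the site where tRNAs leave, was at 15.8, 14.1 and 13 FPKM in vehicle, 9.05 and 9.53 in rimonabant replicates 2 and 3, and 7.10, 6.29 and 8.84 under TXX-1-10. All libraries of each group were apart from those of the others. Its log2 fold change under TXX-1-10 was -0.95 ± 0.12 (edgeR adjusted p = 1.18e-05), and it passed a fold of 2 without replicate 3 (-1.09). MRPL33 (ENSG00000243147, chr2:27771717-27988087, plus strand) was at 42.9, 41.1 and 37.2 FPKM in vehicle and at 20.6, 20.0 and 24.6 under TXX-1-10 (log2 -0.89 ± 0.09), and 21.1% of its exon bases are shared with BABAM2. In rimonabant replicates 2 and 3 it was at 33.7 and 36.4, just below the lowest vehicle library. MRPL27 (ENSG00000108826, chr17:50367857-50373214, minus strand), whose bacterial counterpart lies at the peptidyl transferase centre, went from 15.3, 15.3 and 14.4 FPKM to 8.07, 8.48 and 9.08 (log2 -0.81 ± 0.07). MRPS34 (ENSG00000074071, chr16:1771890-1773155, minus strand), a small subunit protein found only in mitochondria, was the member of highest level among the large falls. It was at 69.7, 71.6 and 75.8 FPKM in vehicle, at 54.1 and 54.1 in rimonabant replicates 2 and 3, and at 37.9, 37.7 and 49.7 under TXX-1-10. Its TXX-1-10 replicate 3 was thus 1.31 times the mean of the others, and the log2 fold change was -0.79 ± 0.09 with and -0.94 without it.

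The next 5 falls were of like size. MRPL17 was at 48.3, 48.8 and 49.5 FPKM in vehicle and 28.6, 26 and 32 under TXX-1-10 (log2 -0.76 ± 0.07). MRPL20 went from 17.5, 18.6 and 20.3 FPKM to 11.3, 11 and 11.9 (log2 -0.72 ± 0.08), and it was among the members least shifted in replicate 3, at 1.07 times the others. MRPL16 went from 19.9, 20.3 and 19.8 FPKM to 12.7, 10.7 and 13 (log2 -0.72 ± 0.08). All of these have bacterial counterparts. MRPS9, from the head of the small subunit, was at 16.7, 15.1 and 14.3 FPKM in vehicle, and at 8.29, 8.69 and 11.1 under TXX-1-10 (log2 -0.72 ± 0.11). MRPL23, whose bacterial counterpart lines the exit of the tunnel for the new chain, was the least precise of them: it stood at 5.85, 8.97 and 6.19 FPKM in vehicle and at 3.77, 4.24 and 4.53 under TXX-1-10 (log2 -0.75 ± 0.17, edgeR adjusted p = 0.00142). The antisense gene MRPL23-AS1 shares 2.86% of its exon bases, and other genes share 15.5% of those of MRPL20 and 8.88% of those of MRPS9. In the 10 largest falls the TXX-1-10 libraries did not overlap the vehicle libraries. Of all 42 falls, 21 were beyond -0.5 on the log2 scale, and the smallest was MRPL22 at -0.16.

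**Figure D3:**
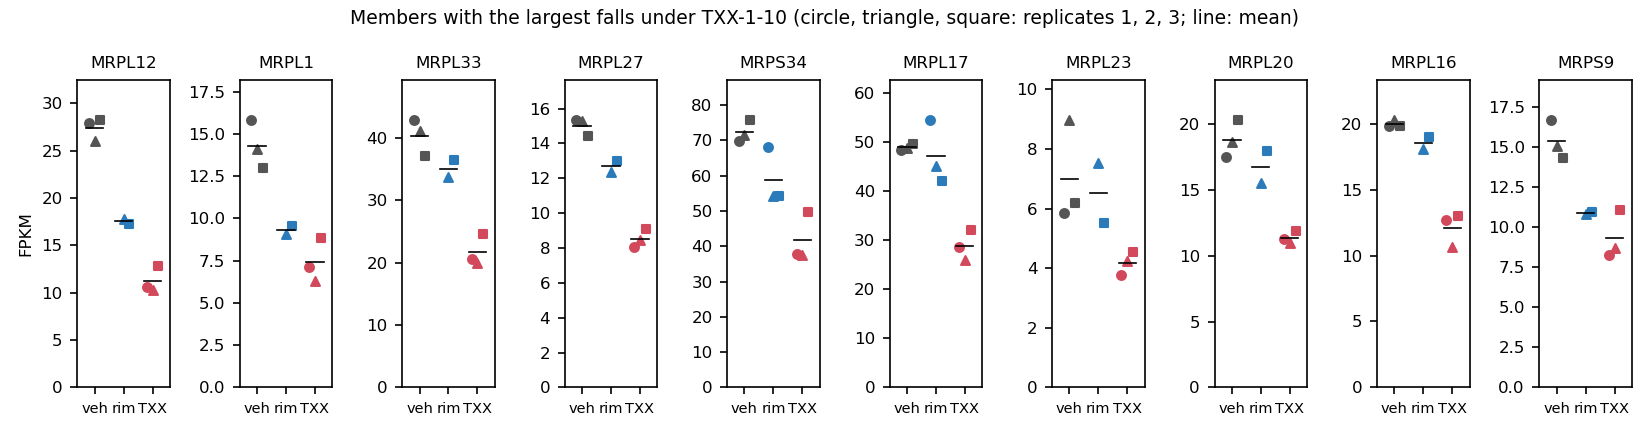
FPKM (vertical axes from 0) of the 10 members with the largest falls under TXX-1-10, by treatment and library, with a line at each mean. In every panel the 3 TXX-1-10 points lie below the 3 vehicle points, and replicate 3 (square) is the highest TXX-1-10 point.

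The 5 rises were small. MRPL45 (ENSG00000278845, chr17:38297023-38323218, plus strand), which lies at the tunnel exit and anchors the ribosome to the inner membrane, was at 31.6, 30.9 and 30.8 FPKM in vehicle and at 36.6, 37.4 and 43.0 under TXX-1-10 (log2 0.33 ± 0.07, edgeR adjusted p = 0.000678; 0.25 without replicate 3). Its pseudogene MRPL45P2 was also higher under TXX-1-10, at 161 to 207 counts against 85 and 100 in vehicle replicates 1 and 3, and reads that fit both copies cannot be told apart, so the level of MRPL45 is uncertain. MRPL34, a large subunit protein with a bacterial counterpart, went from 26.5, 27.8 and 27.9 FPKM to 33.3, 31.3 and 35.9 (log2 0.29 ± 0.06). The groups were apart for both, as they were for MRPL10. MRPS6 was at 4.96, 4.83 and 4.42 FPKM in vehicle and at 5.32, 5.11 and 6.80 under TXX-1-10 (log2 0.28 ± 0.11, edgeR adjusted p = 0.0316), and its call was lost without replicate 3 (log2 0.14, edgeR adjusted p = 0.125). MRPS10 was at 59.4, 55.1 and 52.0 FPKM in vehicle and at 59.9, 63.5 and 65.2 under TXX-1-10 (log2 0.18 ± 0.06, edgeR adjusted p = 0.0146), so that the highest vehicle library nearly met the lowest treated library. MRPS6 shares 9.61% of its exon bases with SLC5A3 and AP000317.2, and MRPL34 shares 13.2% with ABHD8. The 25 members without a call lay between -0.18 and 0.16. MRPS36, whose protein serves the oxoglutarate dehydrogenase complex, was at 18.6, 16.3 and 17.5 FPKM in vehicle and at 18.6, 17.7 and 20.0 under TXX-1-10, which overlapped (log2 0.11 ± 0.08).

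**Figure D4:**
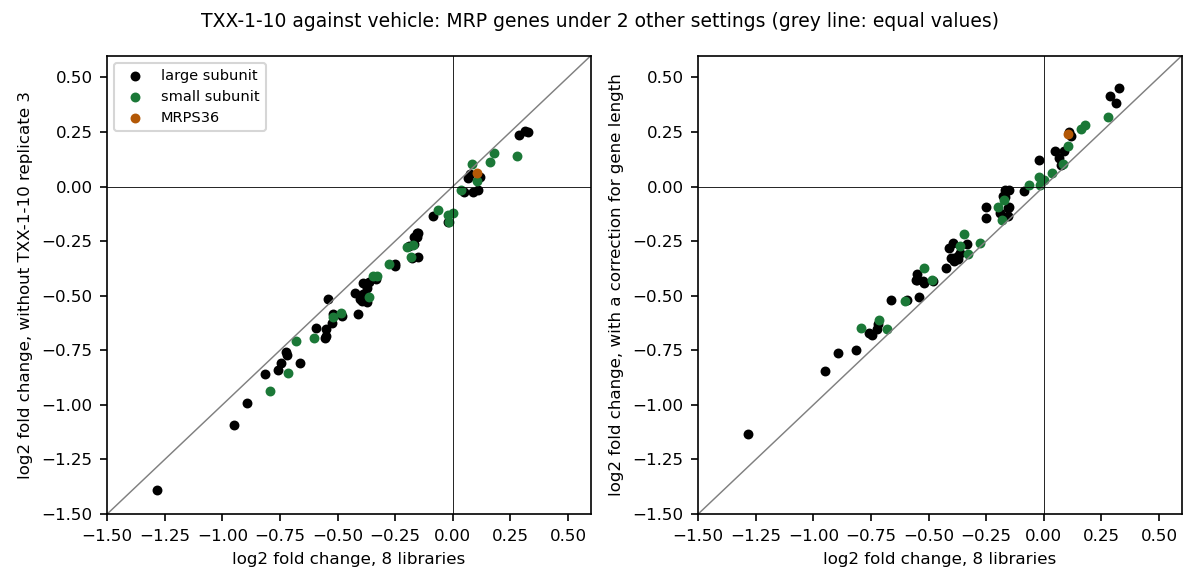
Log2 fold change of each tested member under TXX-1-10 in the fit of 8 libraries (horizontal axis) against that without TXX-1-10 replicate 3 (left panel) and with a correction for gene length (right panel), with a grey line of equal values. Most points lie below the line on the left and above it on the right, and MRPL12 is the lowest point of both panels.

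Under rimonabant, few members rose and the share that fell was near that of all genes. Against vehicle, 18 of 72 members fell and 2 rose (edgeR, replicates 2 and 3), where 22.8% of all genes fell and 23.7% rose, and the medians were -0.14 for members and 0.00297 for all genes. No member passed a fold of 2 by edgeR, against 0.758% of all genes that fell and 0.736% that rose. At any fold, 30 members had an unadjusted p under 0.05, a count whose share over all genes was not taken. Both rimonabant libraries were below all vehicle libraries in 43 members and above them in 10 (35.8% and 36.5% of all genes). Among large subunit genes 11 of 48 fell and 2 rose, and among small subunit genes 7 of 23 fell and none rose by edgeR. The falls numbered 37 when the fit left out TXX-1-10 replicate 3, a library of the other compound whose spread enters the common estimate, and 5 rose (31% and 30.9% of all genes). With a correction for gene length, 21 fell and 6 rose (26% and 27.2% of all genes). In the fit of all 9 libraries, 6 of the 30 members with values fell and 1 rose (25.2% and 23.7% of the genes in that fit), whereas the fit of 8 libraries gave 11 and 1 of the same 30.

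The largest falls under rimonabant were those of MRPL12 (log2 -0.64 ± 0.10) and MRPL1 (-0.62 ± 0.13), with the values given above. MRPS9 fell to 10.8 and 10.9 FPKM (log2 -0.50 ± 0.12). MRPL52, found only in mitochondrial ribosomes, was at 19.8, 19.4 and 19.9 FPKM in vehicle and at 13.6 and 15.4 in rimonabant replicates 2 and 3 (log2 -0.44 ± 0.10). Replicate 1 was at 16.9, also below vehicle. MRPL32, with a bacterial counterpart, went from 16.1, 15.8 and 16.3 FPKM to 11.8 and 11.9 (log2 -0.44 ± 0.08). Under TXX-1-10, MRPL32 was at 12, 11.3 and 13.9 FPKM and MRPL52 at 16.1, 13 and 16.9. For these 2 genes the compounds did not differ by the test (TXX-1-10 against rimonabant, log2 0.06 with a 95% interval of -0.10 to 0.23, and 0.08 with one of -0.12 to 0.27). The 2 rises were MRPL30, from 8.30, 9.02 and 8.05 FPKM to 9.67 and 10.3 (log2 0.24 ± 0.08, edgeR adjusted p = 0.0369), and MRPL49, from 27.2, 26.8 and 26.4 FPKM to 30.9 and 29.9 (log2 0.18 ± 0.06, edgeR adjusted p = 0.0208). MRPL49 was at 32.3 in rimonabant replicate 1, also above vehicle. Other genes share 19.5% of the exon bases of MRPL30 and 12.2% of those of MRPL49. Of the 42 members that fell under TXX-1-10, 15 also fell under rimonabant. These comparisons share the vehicle libraries, which favours such an overlap, and its share over all genes was not counted. MRPS16, MRPS25 and MRPS30 were the members called lower under rimonabant and not under TXX-1-10. Of these, MRPS16 was called lower under TXX-1-10 as well when TXX-1-10 replicate 3 was left out. It had no call between the compounds in the fit of 8 libraries, so a difference between them is not shown for MRPS16.

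**Figure D5:**
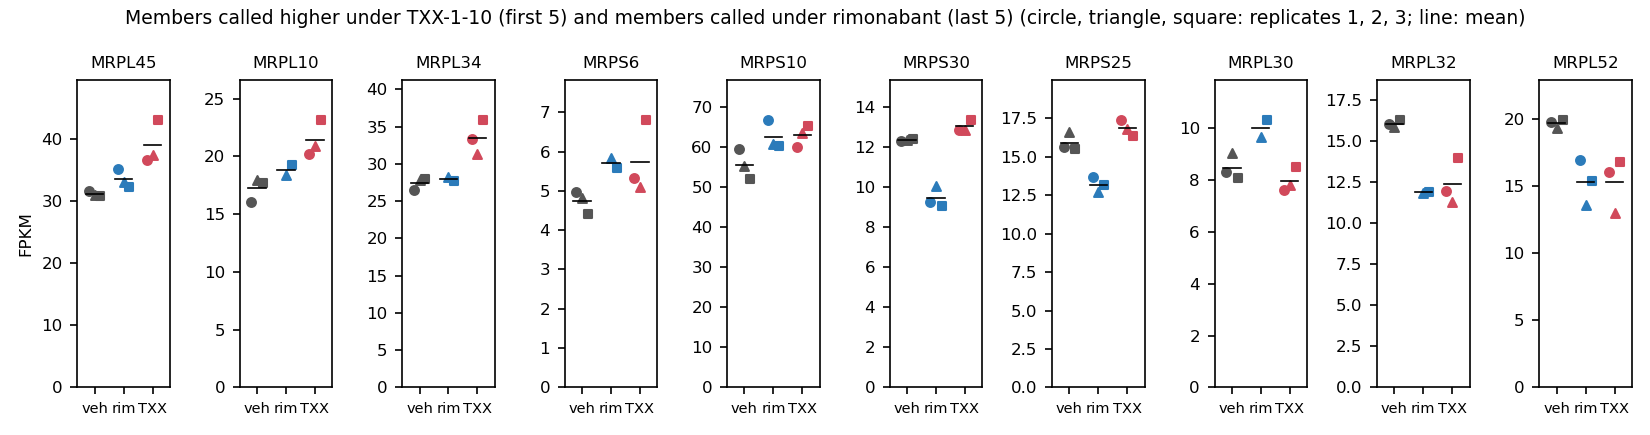
FPKM (vertical axes from 0) by treatment and library of the 5 members that rose under TXX-1-10 and of 5 called under rimonabant, with a line at each mean. MRPS30 and MRPS25 are lowest under rimonabant, MRPL30 is highest there, and the rimonabant and TXX-1-10 points overlap for MRPL52.

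The compounds were also compared directly, with doses not known to match. In the edgeR fit, 26 of 72 members were lower and 6 higher under TXX-1-10 than under rimonabant (33.9% and 26.7% of all genes), with a median of -0.14 against -0.04 for all genes. The share of members that were lower was thus near that of all genes. By the same test none passed a fold of 2 (4.31% lower and 2.1% higher among all genes). At any fold, 38 members had an unadjusted p under 0.05, and the share over all genes was not counted there. Every TXX-1-10 library was below both rimonabant libraries in 27 members and above both in 9 (39.4% and 32% of all genes). Large subunit genes made up 21 of the lower calls and 4 of the higher ones. Of the 42 members that fell under TXX-1-10, 24 were also lower than under rimonabant. Both comparisons use the same TXX-1-10 libraries, which favours such an overlap. Its share over all genes was not counted, so it is no result about the members. Without TXX-1-10 replicate 3, 47 were lower and 5 higher (39.9% and 30.6% of all genes). With TMM scaling 22 were lower and 9 higher (29.8% and 31.2%), again a lower share near that of all genes.

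The largest differences on the lower side were in MRPL33 (log2 -0.69 ± 0.09), MRPL23 (-0.64 ± 0.18), MRPL12 (-0.64 ± 0.11), MRPL16 (-0.61 ± 0.08) and MRPL39 (-0.60 ± 0.12). MRPL39, found only in mitochondrial ribosomes, was at 23.6 and 22.2 FPKM in rimonabant replicates 2 and 3, inside the vehicle range of 22 to 25.9, and at 13.1, 14.2 and 18.1 under TXX-1-10. MRPL16 was at 18.1 and 19 FPKM in rimonabant replicates 2 and 3, just below its vehicle range of 19.8 to 20.3. On the higher side, MRPS30, a large subunit protein despite its name, was at 12.3, 12.4 and 12.4 FPKM in vehicle, at 9.24, 10.0 and 9.06 in the 3 rimonabant libraries, and at 12.9, 12.9 and 13.3 under TXX-1-10. The 3 rimonabant libraries were below all others, with a log2 fold change of -0.37 ± 0.06 against vehicle and 0.45 ± 0.06 for TXX-1-10 against rimonabant (edgeR adjusted p = 5.38e-05). MRPS25, of the small subunit, had the same order, with 15.6, 16.6 and 15.5 FPKM in vehicle, 13.7, 12.7 and 13.1 in the rimonabant libraries, and 17.4, 16.8 and 16.4 in the TXX-1-10 libraries (log2 0.38 ± 0.06 between the compounds), with 22.2% of its exon bases shared with NR2C2. Both calls against vehicle held in the fit of all 9 libraries (log2 -0.39 and -0.27). MRPS2 (0.30 ± 0.08), MRPL34 (0.26 ± 0.07) and MRPL45 (0.26 ± 0.07) were also higher under TXX-1-10 than under rimonabant, and MRPL2 was the remaining higher call, lost without replicate 3. Of the 40 members without a call, 38 had a 95% interval of the difference within 0.5 on the log2 scale in either direction, and MRPL1 and MRPL47 did not.

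The other genes of mitochondrial translation are given beside the 40.6% of all genes that fell and the 34.7% that rose under TXX-1-10. A list of 6 genes held mitochondrial ribosomal proteins with other names and OXA1L, an insertase that binds the ribosome at the membrane. DAP3, PTCD3, AURKAIP1 and GADD45GIP1 fell under TXX-1-10 (log2 -0.26, -0.40, -0.40 and -0.26), while CHCHD1 (0.04) and OXA1L (-0.11) had no call. Among the 22 tested genes of ribosome assembly and rRNA modification, 8 fell and 2 rose, a share of falls below that of all genes, and the median of -0.04 equalled theirs. MRM1, an rRNA methyltransferase of the large subunit, went from 10.3, 9.59 and 8.94 FPKM in vehicle to 6.12 and 7.73 in rimonabant replicates 2 and 3 and to 4.11, 5.21 and 4.65 in the TXX-1-10 libraries (log2 -1.05, edgeR adjusted p = 4.68e-06). It was the one gene of these other lists with a call and a fold of at least 2. Among 11 tested translation factors 5 fell, including the elongation factors TUFM (-0.29), TSFM (-0.41), GFM1 (-0.58) and the recycling factor GFM2 (-0.51), and the release factor MTRF1L rose (0.27). Among 6 tested genes of mitochondrial transcription and mRNA stability, 3 fell: TFAM, which packages mitochondrial DNA (-0.47), LRPPRC (-0.56) and its partner SLIRP (-0.85). Under rimonabant, 22.8% of all genes fell and 23.7% rose. The falls in these lists in turn were 0 of 6, 1 of 22, 1 of 11 and 2 of 6 by edgeR. NSUN4 and METTL15, rRNA methyltransferases, were the 2 rises.

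Of 7 tested nuclear regulators known to act on such genes, 3 rose and 2 fell under TXX-1-10. MYC, a transcription factor that raises ribosome production, was at 74.5, 72.1 and 75.8 FPKM in vehicle, at 68.4, 60.5 and 64.7 under rimonabant and at 94.5, 94.7 and 102 under TXX-1-10. All groups were apart, with log2 fold changes of 0.39 under TXX-1-10 and -0.24 under rimonabant. GABPA (0.47) and ESRRA (0.60) also rose under TXX-1-10, whereas GABPB1 (-0.43) and PPRC1 (-0.45) fell. NRF1 (-0.15) and YY1 (0.11) had no call. PPARGC1A, also on this list of 8, was in 7 lists and was not tested. It was at 0.770 and 0.604 FPKM in vehicle replicates 1 and 3, and at 0.841 and 0.814 in rimonabant replicates 2 and 3. Under TXX-1-10 it was at 2.11, 1.85 and 1.90 FPKM, above all of these, at a low level throughout. Of the 77 tested genes of the cytosolic ribosome, 16 fell and 18 rose under TXX-1-10 (40.6% and 34.7% of all genes), with a median of 0.01. Without TXX-1-10 replicate 3, 40 fell and 17 rose (44.1% and 36.2% of all genes), with a median of -0.10. The count of falls thus depends on whether that library is in the fit. Under rimonabant 21 of the 77 fell and none rose by edgeR (22.8% and 23.7% of all genes). Without TXX-1-10 replicate 3, 58 fell (31% of all genes). In the fit of all 9 libraries 5 of 73 fell (25.2% of the genes in that fit).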

How the data were processed

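RNA-seq data of MDA-MB-231 cells under vehicle, rimonabant or TXX-1-10 (3 libraries each, groups from the treatment labels) were analysed. The study's methods describe mRNA purified with Dynabeads and NEBNext Ultra libraries, with no strand protocol named. HISAT2 2.0.5 and featureCounts 1.5.0-p3 stand in the submitters' processing notes. For each gene and library the authors deposited raw read counts. They also deposited FPKM values, the count divided by gene length and a library total. That total was recovered and used as library size (17078370 to 19277808), and the last line of each list, which is incomplete, was dropped.

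Counts were fitted with edgeR 4.0.16 (R 4.3.3; glmQLFit, glmQLFTest) on 8 libraries and 9369 genes, with Benjamini-Hochberg adjustment. A call needed an adjusted p under 0.05, and for the stricter count also a fold of at least 2. The study's methods took p-values from Cufflinks, which was not rerun here. The standard error is approximate, and 95% intervals span 1.96 standard errors. On simulated data for TXX-1-10 against vehicle with 9369 genes, 199 of 200 genes changed by 1.5-fold were recovered, with 12 false calls. The simulation gave every gene the same spread and held no trend on gene length and no library that stood apart. It therefore does not give the error rates for these libraries. Alternatives were DESeq2 1.42.0, limma 3.58.1, TMM and RLE scaling, other filters, a correction for gene length, a replicate block, all 9 libraries and leaving out each library. Gene positions and exon overlaps follow GENCODE 29. Named members were the 10 largest called changes in each direction under TXX-1-10, the 5 largest in the other comparisons, the 5 highest and 5 lowest in vehicle, the stalk genes, MRPL45, MRPS36 and those in fewer than 8 lists. Others were named after their values were seen. Members and lists were chosen with earlier results of these data known. Python 3.11.15, pandas 2.3.3 and matplotlib 3.10.9 made the tables and plots.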

Additional observations from a re-analysis of the deposited data

Results flagged for a closer look

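Some genes named after members, but not protein-coding and so outside the comparisons, were higher in treated than in vehicle libraries, in CPM (counts scaled to the library total). The pseudogene MRPL45P2 was at 4.98 and 5.81 in vehicle replicates 1 and 3, at 8.19 and 8.42 in rimonabant replicates 2 and 3, and at 10.7, 8.75 and 8.91 under TXX-1-10, so that its lowest treated values were 8.19 and 8.75. MRPS31P5, a pseudogene, was at 0.878 and 1.45 in the same vehicle replicates, at 1.51 in rimonabant replicate 3, and at 2.34 and 1.58 in TXX-1-10 replicates 2 and 3. MRPS30-DT, annotated as antisense, was at 0.41 and 0.465 in vehicle, at 1.19 in rimonabant replicate 3, and at 1.14 and 0.761 in TXX-1-10 replicates 2 and 3. The remaining libraries do not list them, the counts behind these last genes are between 7 and 43, and no test was run.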

How the results depend on the processing

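Of 1911 values of single genes under 25 alternatives, 1745 kept their direction and side of the threshold, 49 lost a call, 91 gained one and 26 changed sign. The 26 belong to 8 results without a call, and 25 of them had none under the alternative either. For rimonabant against vehicle, MRPL14 (-0.09) was at 0.035 with 9 libraries, 0.051 with 9 libraries and a length correction, 0.021 with that correction and 0.0043 with it and a replicate block, MRPL39 (-0.06) at 0.031 with the correction and 0.031 with the block added, and MRPS36 (-0.03) at 0.044 and 0.079. Leaving out each library gave -0.34 to 0.12 for MRPL23 and -0.092 to 0.025 for MRPS36. For TXX-1-10 against rimonabant, leaving out each library gave -0.030 to 0.13 for MRPL32, -0.16 (called, without TXX-1-10 replicate 3) to 0.10 for MRPL41, -0.011 to 0.18 for MRPL52 and -0.13 to 0.084 for MRPS6. There MRPL41 (0.01) was at -0.089 and MRPL52 (0.08) at -0.00073 with 9 libraries, MRPL41 at -0.00280 and -0.00306 and MRPS6 (0.0074) at -0.00157 and -0.00324 with limma at pseudocounts of 1 and 0.1, and they were at -0.0981 and -0.0673 with TMM without TXX-1-10 replicate 3. The combinations of 9 libraries with a length correction, and of TMM without TXX-1-10 replicate 3, were chosen after seeing the data. Why values moved was not tested, except that the 9-library fits hold 30 members by construction. The counts of calls below are given without the share over all genes under the same setting. That share moves with the setting: for falls under rimonabant it was 22.8%, and 31% without TXX-1-10 replicate 3. The counts below therefore show how calls depend on the processing and are no result about the members.

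For TXX-1-10 against vehicle (42 lower, 5 higher, 1 lower with a fold of at least 2, median -0.30), leaving out each library in turn gave 3 to 5 higher, 1 to 2 with the fold and medians of -0.39 to -0.25; the fold count was 2 without vehicle replicate 3 or TXX-1-10 replicate 3, and 3 rose without vehicle replicate 2 or 3. The 9 libraries gave 19 calls, 17 lower and 2 higher, 0 with the fold; with a length correction, 22 calls, 15 lower, 0 with the fold and a median of -0.22. Higher calls numbered 10 with TMM or RLE scaling and 13 with a length correction. TMM without TXX-1-10 replicate 3 gave 2 with the fold.

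For rimonabant against vehicle (18 lower, 2 higher), leaving out each library gave 11 to 42 calls, 11 to 37 lower and 0 to 5 higher. The lowest totals, 11, 12, 13 and 13, came without rimonabant replicate 2, vehicle replicate 2, vehicle replicate 1 and rimonabant replicate 3, and the highest without TXX-1-10 replicate 3. The 9 libraries gave 7 calls, 6 lower and 1 higher. Only the 2 groups compared, or TMM without TXX-1-10 replicate 3, gave 42 calls, 37 lower and 5 higher. Higher calls numbered 1 with DESeq2 and 6 with a length correction. The level ratio to vehicle was 0.951 for members in all 9 lists, against 0.903.

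For TXX-1-10 against rimonabant (26 lower, 6 higher, median -0.14), leaving out each library gave 21 to 52 calls, 18 to 47 lower, 3 to 7 higher and medians of -0.24 to -0.10, the fewest without rimonabant replicate 3. The 9 libraries gave 19 calls and 15 lower; with a length correction, 21 and 14. A length correction gave 10 higher.

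For the other genes of mitochondrial translation, under TXX-1-10 (22 lower, 6 higher) the 9 libraries gave 12 and 2, and 11 lower with a length correction; that correction alone gave 10 higher, as did TMM without TXX-1-10 replicate 3. Under rimonabant (6 lower, 2 higher), leaving out each library gave 4 to 13 lower and 1 to 3 higher. There were 0 higher with 9 libraries, with or without the length correction, or with a mean of at least 5 FPKM, and 1 with DESeq2. A length correction gave 11 lower and 5 higher, the 2 groups alone 12 lower, and TMM without TXX-1-10 replicate 3 13 lower. Between the compounds (15 lower, 7 higher), leaving out each library gave 14 to 24 lower, and 9 libraries gave 9 lower, with or without the length correction, and 3 higher.

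Libraries were not treated as paired by replicate number, since no comparison had every correlation of same-numbered deviations over 0.1. The correlations were -0.0625, 0.0137 and -0.0741 for TXX-1-10 and vehicle, and -0.0537, 0.0435 and 0.0427 for rimonabant and vehicle. For TXX-1-10 and rimonabant they were large but of both signs, -0.789, 0.828 and -0.614. These deviations hold rimonabant replicate 1 and TXX-1-10 replicate 3, which stood apart in their groups. The rule therefore cannot decide whether the libraries were paired. With the replicate number as a block, 42 members fell and 4 rose under TXX-1-10, 23 and 1 under rimonabant, and 25 and 7 between the compounds. Shares over all genes with the block were not counted. With block and length correction, 13, 5 and 10 rose in turn, and of the other genes 11 rose under TXX-1-10 and 10 fell under rimonabant.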
